A study of Mus musculus with 6 samples.

Results

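The MHC class II genes examined here are 10 of the 44794 loci with a gene name in a spleen RNA sequencing table. They were taken by name, and each name had 1 locus. They comprise the classical chains H2-Aa, H2-Ab1 and H2-Eb1, the peptide-loading chains H2-DMa, H2-DMb2 and H2-Oa, the invariant chain Cd74, the transactivator Ciita, the protease Ctss and the reductase Ifi30. H2-DMb2 shared its locus with H2-DMb1, and Cd74 shared its own with the microRNA gene Mir5107, so each of these values belongs to the merged locus.

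All mice received imiquimod, which activates the RNA sensor TLR7, 3 times weekly over 4 weeks before the spleen was taken. The 3 control libraries were B6.Sle1b, a C57BL/6 line that carries the lupus susceptibility interval Sle1b. The 3 knockout libraries were Sle1b.IFNγR-/-, the autoimmune-prone line deficient in the interferon-γ receptor. Both groups thus carried Sle1b and received imiquimod, and no untreated or Sle1b-free group enters the comparison. The labels used here name neither age nor sex nor the receptor chain that was disrupted. Nor do they say that the libraries of a group came from different mice, and the p-values cover the spread between libraries, which may be technical. The stated question was how interferon-γ promotes the entry of autoreactive B cells into antibody-forming and germinal centre pathways.

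MHC class II molecules present peptides from the endosome to CD4 T cells, and in spleen they are made mainly by B cells, dendritic cells and macrophages. An α and a β chain pair in the endoplasmic reticulum around the invariant chain, which is then cut away in the endosome so that H2-DM can exchange its remnant for antigen peptide. Transcription of the chains needs CIITA, a coactivator that binds no DNA itself and is recruited by RFX, CREB and NF-Y factors on the X, X2 and Y boxes of the promoters. In B cells CIITA is made constitutively, whereas in macrophages and many other cells interferon-γ induces it.

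The promoters are shown because these boxes are what class II genes share and what CIITA acts through. RefSeq promoter windows on GRCm38.p6 were found for 7 of the 10 genes, and H2-Ab1, Cd74 and Ciita were not among them. Each stretch runs from 150 bases before the annotated start to 50 bases after it, on the gene's own strand. Capitals mark the X box core AACNNATG, the Y box core TGATTGG, the X2 box core TGACG and a paired interferon regulatory factor site, GAAA followed after 2 further bases by GAAA, all searched on both strands. The H2-Eb1 stretch lies at chr17:34305717-34305916, plus strand, and that of H2-Aa at chr17:34287774-34287973, minus strand. Those of H2-DMb2 and H2-DMb1, which share 1 locus in the table, lie at chr17:34145099-34145298, plus strand, and chr17:34153041-34153240, plus strand. The Ctss stretch lies at chr3:95526636-95526835, plus strand, and that of H2-Oa at chr17:34092229-34092428, plus strand.
H2-Eb1: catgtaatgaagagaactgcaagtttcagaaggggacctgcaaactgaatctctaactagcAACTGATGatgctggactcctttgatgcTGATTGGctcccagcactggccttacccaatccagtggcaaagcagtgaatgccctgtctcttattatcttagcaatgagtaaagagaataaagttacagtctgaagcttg
H2-Aa: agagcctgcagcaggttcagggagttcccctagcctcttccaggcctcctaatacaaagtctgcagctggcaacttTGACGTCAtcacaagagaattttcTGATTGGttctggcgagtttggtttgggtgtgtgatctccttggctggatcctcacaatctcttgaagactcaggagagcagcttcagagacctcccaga
H2-DMb2: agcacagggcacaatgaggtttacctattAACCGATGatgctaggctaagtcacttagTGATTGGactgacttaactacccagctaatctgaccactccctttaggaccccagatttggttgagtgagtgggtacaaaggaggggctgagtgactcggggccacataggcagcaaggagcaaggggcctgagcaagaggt
H2-DMb1: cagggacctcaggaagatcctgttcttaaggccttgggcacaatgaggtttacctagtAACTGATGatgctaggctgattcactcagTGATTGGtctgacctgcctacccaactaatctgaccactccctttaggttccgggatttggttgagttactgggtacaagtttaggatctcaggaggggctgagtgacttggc
H2-Oa: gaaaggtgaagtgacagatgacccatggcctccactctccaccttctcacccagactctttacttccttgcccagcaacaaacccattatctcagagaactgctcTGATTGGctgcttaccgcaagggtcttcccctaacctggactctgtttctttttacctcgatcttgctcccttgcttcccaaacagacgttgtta
Ctss: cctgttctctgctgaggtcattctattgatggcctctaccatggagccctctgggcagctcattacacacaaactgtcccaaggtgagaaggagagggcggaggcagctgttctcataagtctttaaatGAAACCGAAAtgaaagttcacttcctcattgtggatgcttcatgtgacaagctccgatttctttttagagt

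H2-Eb1, H2-DMb2 and H2-DMb1 had an X box core followed by a Y box core, with starts 28, 29 and 29 bases apart. H2-Aa had the Y box core and, upstream of it, overlapping X2 box cores on both strands that form TGACGTCA, without a match to the X letters. H2-Oa matched the Y box core alone. Only exact letters were searched, so a missing match does not show that a box is absent. Ctss had the paired interferon regulatory factor site, 21 bases before its start, and an X box core far upstream at position -207, outside the printed stretch and not beside a Y box. Windows of H2-DMa (34122582 to 34122881 and 34125268 to 34125567 on chromosome 17) lay inside the span of the gene and had none of these motifs. The start of that span, at 34119541, was not among the windows searched. The window of Ifi30 had only an X2 box core, at position -241.

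Matches were searched in the full windows, which reach further upstream than the printed stretches (for H2-Eb1, chr17:34305617-34305916). Single motifs were common among 32851 RefSeq promoter windows of this full length. Of these, 7.82% held the Y box core, 8.86% the X box core, 20.8% the X2 box core and 3.44% the paired interferon regulatory factor site. The X and Y cores on 1 strand with starts 15 to 45 bases apart occurred in 18 windows, or 0.0548%. Of these 18 windows 5 belonged to class II chains, namely H2-Eb1, H2-Eb2, H2-DMb1, H2-DMb2 and H2-Ob. The letters and the spacing were set with the class II windows in view, so this count describes the boxes and is no test.

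**Figure D1:**
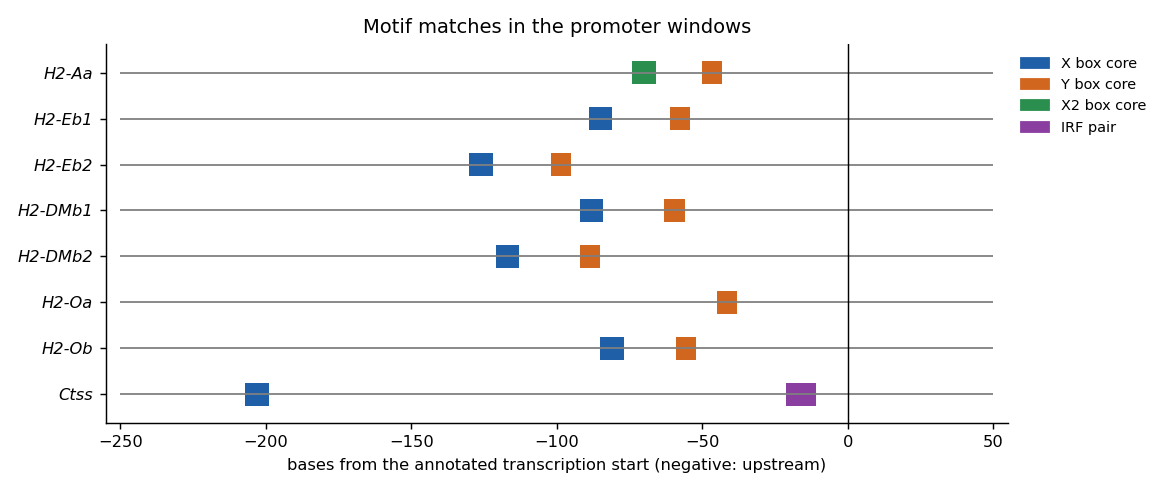
Motif matches in RefSeq promoter windows of class II genes and Ctss; the x axis gives bases from the annotated transcription start, each grey line is 1 window and each coloured block 1 match. X and Y box cores stand 26 to 29 bases apart in H2-Eb1, H2-Eb2, H2-DMb1, H2-DMb2 and H2-Ob. H2-Aa matches the letters of the X2 and Y box cores, and Ctss has a paired interferon regulatory factor site near its start. Only exact letters were searched.

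The values are fragments counted per locus, put on a common scale by the authors through a quartile of each library. The libraries held between 4394299 and 6349827 fragments. All 60 values of the class II genes were whole fragments within 0.01, and ranged from 0 to 1717 fragments. In B6.Sle1b replicate 1 the named loci took up 27.0% of the summed values, against 17.5% to 20.0% elsewhere. The ribosomal protein level, the median of 29 genes on a centred log2 scale, was 1.55 in that library and between -0.53 and -0.14 in the others. B6.Sle1b replicate 1 therefore stood apart, and the log2 differences below are also given without it. Fewer cells of a type and less RNA per cell cannot be told apart in whole spleen.

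Every gene of the set but H2-Oa was detected in all 6 libraries, and none differed between genotypes past the threshold. All 10 genes were highest in B6.Sle1b replicate 1, where 37.9% of the 19227 tested loci had their highest value. H2-Ab1, Ctss and Cd74 alone, 3 of 10, were lowest in B6.Sle1b replicate 2, as were 24.3% of tested loci. In 9 of the 10, H2-DMb2 being the exception, the controls ran in the order replicate 1, 3, 2. Over all tested loci that order was found in 33.0%. Of the 30 values of Sle1b.IFNγR-/-, 16 lay between B6.Sle1b replicates 2 and 3, against 34.9% of the values over all loci. The summed class II values were 4895, 858 and 1850 in B6.Sle1b replicates 1 to 3 and 1143, 1273 and 1466 in Sle1b.IFNγR-/- replicates 1 to 3. As a share of all named loci this was 0.316%, 0.0939% and 0.179% against 0.114%, 0.122% and 0.141%, so that the knockout libraries again lay between the lowest and the highest control.

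**Figure D2:**
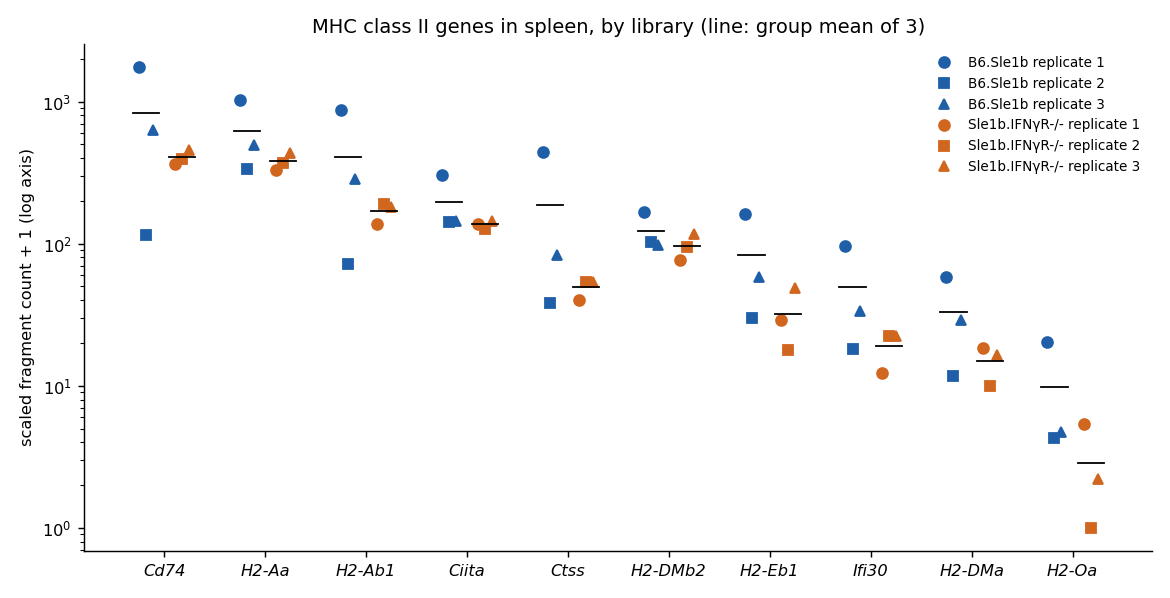
Scaled fragment counts of the 10 class II genes plus 1, on a log axis, by library; black lines are group means of 3 libraries computed before 1 was added. B6.Sle1b replicate 1 is highest for all 10 genes, and all 3 Sle1b.IFNγR-/- libraries lie between B6.Sle1b replicates 2 and 3 for H2-Ab1, Cd74 and Ctss.

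The classical chains form the peptide-binding molecule itself. H2-Ab1, the β chain of I-A (34257689 to 34269419 on chromosome 17 of GRCm38), reached 870, 70.7 and 284 scaled counts in controls and 136, 189 and 180 in knockouts. All 3 knockout values lay between B6.Sle1b replicates 2 and 3. The means were 408 ± 414 and 168 ± 28.5 (SD, n = 3 each), and the log2 difference was -0.64 (SE 0.63), which did not pass in limma (adjusted p 0.99976 after Benjamini-Hochberg correction, as for each of the 9 tested genes). Without B6.Sle1b replicate 1 the difference was 0.23 (SE 0.36), so its sign rested on that library.

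H2-Aa, the α chain of I-A, encoded on the opposite strand next to H2-Ab1 (34282744 to 34287823), had 1031, 335 and 491 in controls and 330, 370 and 435 in knockouts. The groups overlapped through B6.Sle1b replicate 2, which lay just above the lowest knockout value. The log2 difference was -0.56 (SE 0.35), and -0.11 (SE 0.21) without B6.Sle1b replicate 1. H2-Aa varied far less between libraries than its partner: the highest control was 3.08 times the lowest for H2-Aa and 12.3 times for H2-Ab1.

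H2-Eb1 encodes the β chain of I-E (34305867 to 34316674). Mice of the C57BL/6 haplotype make no I-E molecule, because the gene for its α chain is defective. Its scaled counts were 160, 28.8 and 57.2 in controls and 28.0, 16.9 and 47.9 in knockouts. The ranges overlapped, with 2 of the 3 knockout libraries under all controls. The log2 difference was -1.15 (SE 0.55, 95% interval -2.34 to 0.03), or -0.50 (SE 0.44) without B6.Sle1b replicate 1. The α chain pseudogene H2-Ea-ps was near 0, with 6.11, 4.93 and 0 in controls and 0, 2.25 and 0 in knockouts.

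Peptide loading and its control rest on the H2-DM and H2-O pairs. H2-DMa, the α chain of the exchange factor H2-DM (34119541 to 34139101), had 57.1, 10.7 and 28.1 in controls and 17.5, 8.99 and 15.6 in knockouts. The log2 difference was -0.90 (SE 0.56), or -0.35 (SE 0.59) without B6.Sle1b replicate 1, with overlapping groups and as few as 8 fragments in a library. The locus of the β chains H2-DMb1 and H2-DMb2 (34143307 to 34160230) had 167, 101 and 97.5 against 76.1, 93.3 and 116. It was the most even of the set across controls, whose highest value was 1.71 times the lowest, and its log2 difference was -0.33 (SE 0.31), or -0.08 (SE 0.27) without B6.Sle1b replicate 1.

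The neighbouring copies at that locus are close in sequence. Their longest GENCODE protein-coding transcripts were 95.5% identical over 1058 aligned bases, with a longest identical run of 221 bases. Reads in such a run could come from either copy. The 2 genes are reported as 1 locus, and whether their likeness is the reason was not tested. H2-Eb1 and H2-Eb2 were 78.8% identical over 770 aligned bases, with a longest identical run of 44.

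H2-Oa encodes the α chain of H2-O, a modulator that restrains H2-DM and is found mainly in B cells. It had 19, 4 and 4 fragments in controls and 5, 0 and 1 in knockouts, or scaled counts of 19.4, 3.29 and 3.75 against 4.37, 0 and 1.20. A value of 3 fragments corresponds to 2.47 to 3.59 scaled counts, the limit that a count of 0 allows, and 2 knockout libraries lay under it. With a mean of 5.33 it missed the minimum mean of 10 and was not tested. The other 9 genes passed that filter through their mean over all 6 libraries.

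Cd74 (chromosome 18) encodes the invariant chain, which fills the groove of new class II molecules and guides them to the endosome. It was the most abundant gene of the set per kilobase of exon in 5 of the 6 libraries. Its scaled counts were 1750, 114 and 630 in controls and 364, 396 and 453 in knockouts, so that every knockout value lay between B6.Sle1b replicates 2 and 3. The highest control was 15.3 times the lowest, the widest spread of the set, whereas the highest knockout value was 1.24 times the lowest. The log2 difference was -0.32 (SE 0.68), and 0.58 (SE 0.38) without B6.Sle1b replicate 1.

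Ciita, the transactivator (chromosome 16, 10480059 to 10528418), had 304, 141 and 142 in controls and 137, 126 and 144 in knockouts. Apart from B6.Sle1b replicate 1, all 5 libraries lay within 126 to 144. The log2 difference was -0.43 (SE 0.32, 95% interval -1.12 to 0.26) with all libraries. It was -0.06 (SE 0.24) without B6.Sle1b replicate 1. Of the 5 distinct transcripts listed at its locus, 4 carried identifiers of assembled transcripts rather than annotated ones. The table gives no count per transcript, so the use of the interferon-γ-induced Ciita promoter was not analysed here.

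Ctss encodes cathepsin S, the protease that trims the invariant chain in antigen-presenting cells (chromosome 3, 95526786 to 95556403). It had 441, 37.0 and 82.5 in controls and 39.3, 52.8 and 52.7 in knockouts. B6.Sle1b replicate 1 was 7.38 times the mean of the other controls, the largest such ratio of the set. The log2 difference of -1.20 (SE 0.65) was also the largest, and it was -0.21 (SE 0.36) without that library.

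Ifi30 encodes GILT, an interferon-γ-inducible reductase that opens disulphide bonds of antigens in the endosome (chromosome 8, 70762774 to 70766663). It had 95.8, 17.3 and 32.8 in controls and 11.4, 21.4 and 21.6 in knockouts. The groups overlapped, since B6.Sle1b replicate 2 lay under 2 of the knockout libraries. The log2 difference was -1.09 (SE 0.54), or -0.43 (SE 0.51) without B6.Sle1b replicate 1.

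All 9 tested genes had a log2 difference below 0, with a median of -0.64. Over the 19227 tested loci 58.1% were below 0, with a median of -0.083. In the limma fit 0% of loci passed an adjusted p of 0.05, and 596 (3.1%) had an unadjusted p under 0.05, of which 399 (2.08% of all loci) had lower values in knockouts. None of the 9 genes was among them, their unadjusted limma p running from 0.056 for H2-Eb1 to 0.645 for Cd74. None of the 10 had groups without overlap, a pattern that 5.19% of tested loci showed with lower and 3.51% with higher values in Sle1b.IFNγR-/-. Without B6.Sle1b replicate 1 the median was -0.11, with 7 of 9 genes below 0, and 48.4% of all loci below 0. Without B6.Sle1b replicate 2, the library of lowest class II sum, the median was -1.50 against -0.17 for all loci. In that fit 7 of the 9 genes had an unadjusted p under 0.05 with lower values, as had 7.56% of all loci, and the smallest adjusted p among the genes was 0.168. The size of the class II difference thus depended on which control libraries were counted, and the count of genes past the threshold was 0 in each case.

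**Figure D3:**
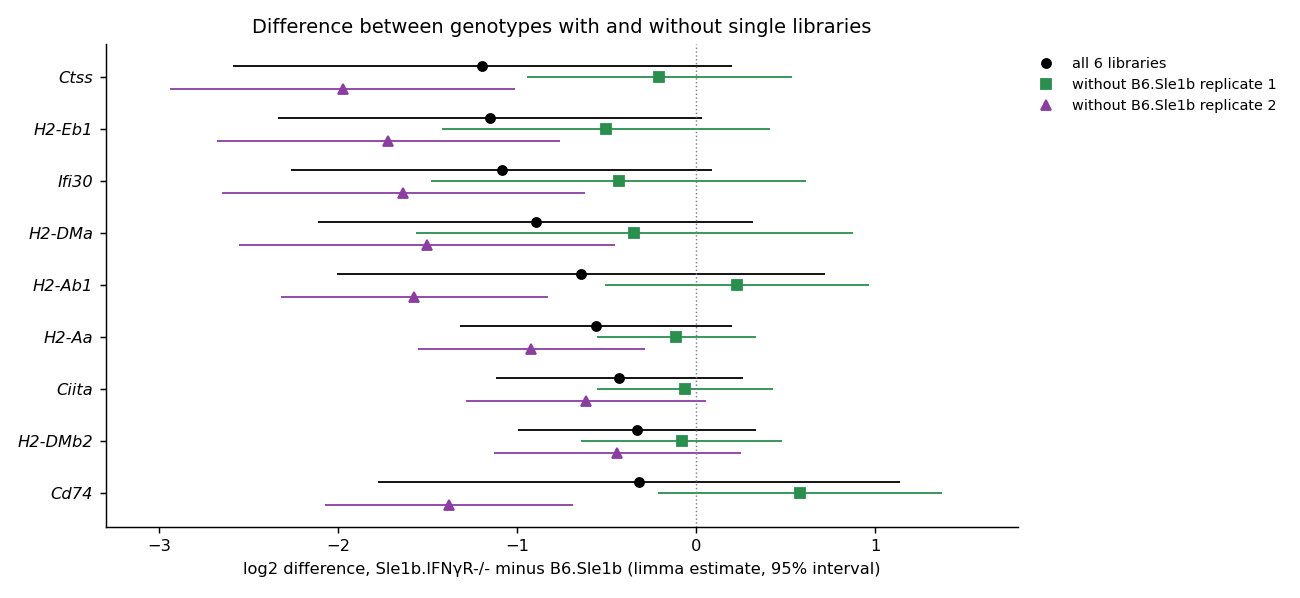
Log2 differences of the 9 tested class II genes between genotypes, with 95% intervals from limma, for all 6 libraries and without B6.Sle1b replicate 1 or 2. Points at or left of 0 have lower values in Sle1b.IFNγR-/-. With all libraries every interval includes 0, and without B6.Sle1b replicate 1 the points of H2-Ab1 and Cd74 move above 0.

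The spread was wider among controls than among knockouts. Over the 9 genes with all values above 0, the median ratio of highest to lowest library was 5.55 among controls and 1.39 among knockouts. For the 4854 tested loci with a mean of at least 50 these ratios were 1.70 and 1.41. Within the set, Ciita and the H2-DMb locus, where 4 of 5 and 8 of 13 listed transcripts were assembled, had the smallest ratios over all 6 libraries, none above the 2.41 of Ciita. Cd74, with 1 of 5 assembled, had the largest, at 15.3. Spearman's rho between the assembled share and this ratio was -0.82 across 9 genes that share the same libraries, given as a description. Over loci with a mean of at least 50, the median ratio was 1.87 where more than 50% of transcripts were assembled and 2.09 elsewhere.

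Levels were compared between genes per kilobase of annotated exon. On this scale Cd74 was highest, at a mean of 368 over the 6 libraries, followed by H2-Aa at 131, H2-Ab1 at 112 and Ctss at 86.6. Ifi30 (34.0), the H2-DMb locus (31.7), H2-Eb1 (29.0) and Ciita (17.4) formed a middle group. H2-DMa was at 6.67 and H2-Oa at 3.79. Cd74 exceeded H2-Aa in 5 of 6 libraries, and H2-Aa exceeded H2-Ab1 in 5 of 6. The order Ifi30 above the H2-DMb locus held in only 2 of 6 libraries. H2-DMb above H2-Eb1, and H2-Eb1 above Ciita, each held in 4 of 6, so these neighbours did not differ beyond their spread. The steps from H2-Ab1 to Ctss, Ctss to Ifi30, Ciita to H2-DMa and H2-DMa to H2-Oa held in all 6. Loci also collect reads from assembled transcripts outside annotated exons, which this length does not cover.

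A gene's share in the summed class II values of its own library does not depend on the scale between libraries. Cd74 held 35.7%, 13.3% and 34.1% in controls and 31.8%, 31.1% and 30.9% in knockouts. H2-Aa held 21.1%, 39.0% and 26.6% against 28.8%, 29.0% and 29.7%. For these 2 genes the knockout libraries lay close together, and B6.Sle1b replicate 2 had the lowest Cd74 and the highest H2-Aa share. For H2-Eb1, H2-DMa, Ifi30 and H2-Oa the shares spread more among knockouts than among controls, with SDs of 0.98, 0.41, 0.35 and 0.20 against 0.13, 0.19, 0.12 and 0.11 percentage points. B6.Sle1b replicate 2 also had the highest shares of Ciita (16.4%) and the H2-DMb locus (11.8%), against 6.20% to 12.0% and 3.41% to 7.92% in the others.

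Ctss and Ifi30 were the 2 of 10 genes whose shares of the sum over all 10 did not overlap between groups, and both overlapped once Cd74 was left out of the sum. Ctss held 9.01%, 4.31% and 4.46% in controls and 3.44%, 4.15% and 3.59% in knockouts. Ifi30 held 1.96%, 2.01% and 1.77% against 0.995%, 1.68% and 1.47%. The mean shares were 5.93% and 3.73% for Ctss and 1.91% and 1.38% for Ifi30. Without B6.Sle1b replicate 1 the differences were -0.66 and -0.51 percentage points. For both the two-sided exact permutation p was 0.1, the lowest that 3 against 3 libraries can give, and 0.5 after Benjamini-Hochberg adjustment over 10 genes, so neither could pass. Of the sum without Cd74, Ctss held 14.0%, 4.97% and 6.76% against 5.05%, 6.02% and 5.20%, and Ifi30 3.05%, 2.32% and 2.69% against 1.46%, 2.43% and 2.13%. There the two-sided exact permutation p was 0.4 for Ctss and 0.2 for Ifi30, or 0.788 for each after Benjamini-Hochberg adjustment over 9 genes. Levels of all tested loci relative to the same class II sum were without overlap and lower in 0.317% of loci, and without overlap and higher in 6.48%. The 10 genes make up that sum and the other loci do not, so these rates are no like background for Ctss and Ifi30. H2-Eb1 held 3.24% ± 0.13 against 2.35% ± 0.98 (SD, n = 3 each), with overlap through Sle1b.IFNγR-/- replicate 3. The other 7 genes overlapped, with two-sided exact permutation p between 0.2 and 1 before adjustment.

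**Figure D4:**
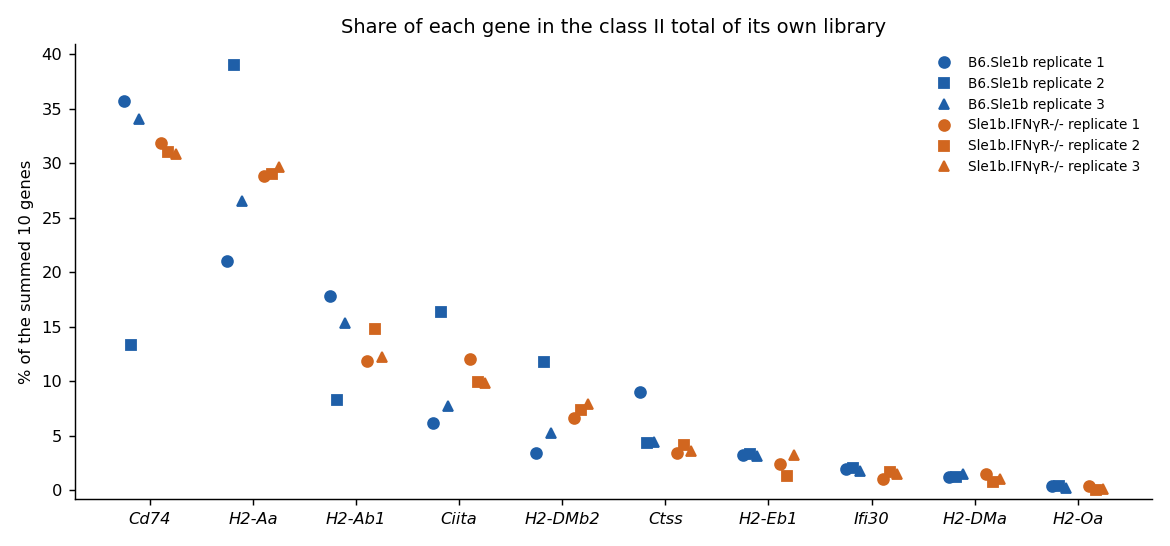
Share of each gene in the summed scaled counts of the 10 class II genes, in percent, by library. The Sle1b.IFNγR-/- libraries lie close together for Cd74 and H2-Aa, B6.Sle1b replicate 2 stands apart for Cd74, H2-Aa, Ciita and H2-DMb2, and the shares of Ctss and Ifi30 are lower in all 3 Sle1b.IFNγR-/- libraries than in any B6.Sle1b library. With Cd74 left out of the sum, which is not plotted, both genes overlap between groups.

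Ratios between partners were taken within each library. The H2-Aa to H2-Ab1 ratio of scaled counts was 1.19, 4.73 and 1.73 in controls and 2.43, 1.96 and 2.42 in knockouts. The Cd74 to H2-Ab1 ratio was steadier, at 2.01, 1.62 and 2.22 against 2.68, 2.10 and 2.52. Ctss per Cd74 was 0.252, 0.324 and 0.131 against 0.108, 0.134 and 0.116, overlapping narrowly between B6.Sle1b replicate 3 and Sle1b.IFNγR-/- replicate 2. Ifi30 per Cd74 was 0.0547, 0.151 and 0.0521 against 0.0312, 0.0540 and 0.0476. Of 8 ratios compared on the log2 scale, none was without overlap. The smallest two-sided exact permutation p was 0.2, or 0.533 after Benjamini-Hochberg adjustment, shared by Cd74 to H2-Ab1, H2-Oa to H2-DMa and Ctss to Cd74. Without B6.Sle1b replicate 1 the log2 ratio of Ctss to Cd74 was lower by a difference of -0.79, against -0.88 with it. A design whose smallest p is 0.1 could not have passed the threshold.

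Marker genes of the cell types that make class II varied with these values. All 10 B cell markers (Ms4a1, Cd79a, Cd22 and others) were above 0 in every library, and their summed scaled counts were 984 to 2197 in controls and 1094 to 1164 in knockouts, highest in B6.Sle1b replicate 1. Conventional dendritic cell markers summed to 276 to 598 against 325 to 347, with Batf3 at 0 in 2 libraries. Monocyte markers summed to 233 to 1329 against 320 to 373, with Plac8 at 0 in 2 libraries. Red pulp macrophage markers summed to 428 to 1335 against 605 to 679, with none at 0, and plasmacytoid dendritic cell markers to 93.7 to 205 against 84.8 to 117, with Bst2 at 0 in 4 libraries and Cox6a2 in 5. Plasma cells carry little class II, and their markers summed to 210 to 1077 in controls and 167 to 192 in knockouts, without overlap, with Tnfrsf17 at 0 in every library and Mzb1 in 2. All 6 tested plasma cell markers had negative log2 differences, with a median of -1.32, or -0.55 without B6.Sle1b replicate 1, and none passed the limma threshold. In each list the highest sum was that of B6.Sle1b replicate 1. The part of these cell types in the class II differences was not tested.

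Class II levels were therefore also set against these markers within each library. The median centred log2 level of the 10 genes, less that of the B cell markers, was 0.99, -0.09 and 0.22 in controls and -0.29, -0.17 and -0.15 in knockouts. The groups did not overlap, and the nearest libraries were B6.Sle1b replicate 2 and Sle1b.IFNγR-/- replicate 3. The spread among controls (SD 0.56) was as wide as the difference between the means (-0.58). Against conventional dendritic cell markers the values were 1.30, -0.08 and 0.08 against -0.28, -0.23 and -0.15, also without overlap. Against plasma cell markers the order was the opposite, at -0.09, -0.30 and 0.02 in controls and 0.25, 0.02 and 0.46 in knockouts, higher in knockouts without overlap. Against monocyte, red pulp macrophage, plasmacytoid dendritic cell, T cell and erythroid markers and against ribosomal protein genes the groups overlapped. Gene by gene, H2-Aa (0.30, 0.02 and 0.06 against -0.29, -0.16 and -0.05) and Ifi30 (0.98, -0.09 and 0.28 against -0.94, -0.12 and -0.23) had lower values in knockouts without overlap. These were 2 of 10 genes, and 1.6% of all tested loci were lower on this scale without overlap and 5.66% higher. Both separations were narrow. The nearest H2-Aa values were 0.02 in B6.Sle1b replicate 2 and -0.05 in Sle1b.IFNγR-/- replicate 3. Those of Ifi30 were -0.09 in B6.Sle1b replicate 2 and -0.12 in Sle1b.IFNγR-/- replicate 2, from 21 and 19 fragments.

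**Figure D5:**
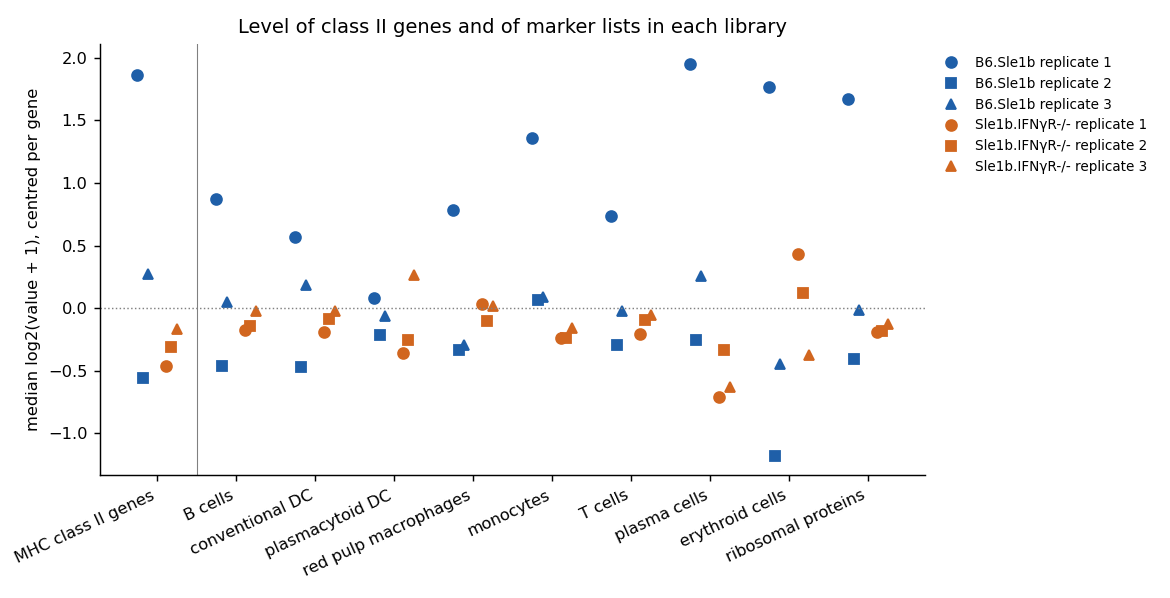
Median log2(value + 1), centred per gene, of the class II genes and of 9 lists of marker or ribosomal protein genes in each library. B6.Sle1b replicate 1 is highest in all lists but that of plasmacytoid dendritic cells, and the class II level is 1.86 there and between -0.56 and 0.27 elsewhere.

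Other genes of the pathway were counted from lists, none with a member past the threshold (limma, adjusted p of 0.99976 or above). Among other class II chains, the H2-O β chain H2-Ob had 151, 43.6 and 48.7 against 60.3, 57.3 and 29.9, and H2-Eb2 had 38.7, 18.9 and 23.4 against 42.8, 25.8 and 35.9. Of the 3 tested loci of that list, the H2-DMb locus included, 2 had negative log2 differences. Of 6 tested promoter factors, 5 had negative log2 differences and 1 a positive one, with a median of -0.35 against -0.083 for all loci. The X box factor Rfx5 lay at 22.2 ± 6.62 against 20.4 ± 11.1, and the Y box subunit Nfyc at 15.8 ± 2.60 against 14.0 ± 10.96 (SD, n = 3 each). The CREB gene Creb1 had 198, 56.7 and 88.1 against 99.7, 40.5 and 74.3. Without B6.Sle1b replicate 1 the list's median was -0.063.

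Of 8 tested processing and turnover genes, 7 had lower and 1 a higher value in Sle1b.IFNγR-/-, with a median of -0.40. The median was 0.14 without B6.Sle1b replicate 1, with 1 of the 8 genes below 0. Cst3, the cathepsin inhibitor cystatin C, had 116, 13.2 and 34.7 against 17.5, 34.8 and 16.8. The cathepsin gene Ctsh had 158, 49.3 and 82.5 against 47.2, 64.1 and 73.1. The ubiquitin ligase gene March1, which removes class II from the surface, lay at 33.0 ± 20.4 against 37.1 ± 7.29 (SD, n = 3 each).

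Upstream of Ciita, 6 of 7 tested genes of the interferon-γ axis had negative log2 differences, with a median of -0.38, and -0.21 without B6.Sle1b replicate 1. Ifngr1, the ligand-binding receptor chain, had 81.5, 34.5 and 63.7 against 43.7, 21.4 and 23.96, a log2 difference of -0.98 (SE 0.41). Ifngr2, the signalling chain, was under the minimum mean at 11.0 ± 3.09 against 6.72 ± 2.95 (SD, n = 3 each). As the labels name no receptor chain, neither level is a check of the knockout. Irf1 had 33.6, 15.6 and 11.2 against 8.74, 22.5 and 7.19. The groups of Irf1 overlapped.

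Among other regulators, all 6 tested had negative log2 differences, with a median of -0.45, or -0.067 with 4 of 6 negative without B6.Sle1b replicate 1. Prdm1, which encodes Blimp-1, a repressor of Ciita in plasma cells, had 86.6, 59.2 and 64.7 against 35.0, 42.7 and 50.3. It was the 1 of these 6 genes that was lower without overlap, as were 5.19% of all tested loci. Its log2 difference was -0.70 (SE 0.31), or -0.54 (SE 0.33) without B6.Sle1b replicate 1. Irf4 had 225, 41.9 and 56.2 against 45.5, 46.1 and 34.7. Of 5 tested partners in T cell help, the log2 difference was below 0 in 3 and above 0 in 2 (median -0.31, and 0.080 without B6.Sle1b replicate 1). Among them Cd4 had 191, 76.5 and 98.4 against 78.7, 82.0 and 68.3, and Icos 101, 23.0 and 70.3 against 42.8, 46.1 and 39.5.

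The loci whose profile over the 6 libraries was most like the mean class II profile included Cybb, Arrb1, Ylpm1 and Eif5b. Pearson's r was between 0.993 and 0.997 over 6 libraries, given as a description. Cybb, the phagocyte oxidase subunit, had 418, 56.7 and 123 in controls and 70.8, 62.9 and 75.5 in knockouts. Of the 4854 loci ranked, 10.96% had an r above 0.9, and the 4 named here were highest in B6.Sle1b replicate 1. Within the set r ranged from 0.83 for the H2-DMb locus to 0.99 for H2-Aa among the 7 genes with a mean of at least 50. The mean class II profile contains each of these genes, so their r is no measure of how alike they are.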

How the data were processed

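The 6 spleen libraries, 3 per genotype, came from 1 table of the whole series. The deposited signal is fragments counted per locus and put on a quartile scale by the authors, as the table's own name and headers state. The submitters' processing notes name CASAVA, TopHat2 (2.0.9), Cufflinks (2.2.1) and GRCm38. RNA was extracted with TRIzol and amplified with the Ovation V2 system, per the labels' protocols. Strand setting, annotation release and the treatment of multiply mapped reads were not stated. The 1530481 rows were collapsed to 426574 loci. Another 18 columns of per-library values and 6 status columns were not used. In each library 99.8% of positive values were whole multiples of 1 step, the rest were not, and no count model was used.

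The 19227 named loci whose mean reached 10 were compared on log2(value + 1), which understates changes of low genes, using limma 3.58.1 (R 4.3.3) with a mean-variance trend and no covariate, and Benjamini-Hochberg adjustment over all of them. Exact permutation tests, two-sided, were run on shares and ratios (scipy 1.17.1). Floors of 3 fragments cover counting error only. The fit was tested on simulated data with known changes and the same spread for all loci. That checks the code and not the power in these libraries. Coordinates and exon lengths came from GENCODE M21. The genes named are the members, genes of the pathway lists with priority to the smallest p, and the 5 loci most like the members, of which 1 is not reported here. Members, lists and motifs were chosen with earlier results of these data known. Alternatives covered scaling, filter, pseudocount, variance model, a ribosomal covariate, a replicate block, a class II sum without Cd74 and each library left out.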

Additional observations from a re-analysis of the deposited data

How the results depend on the processing

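No class II gene passed the threshold under any of the alternatives run. Over all loci the limma fit called 0, against 1 with scaling to the total of named loci, 8 with the ribosomal protein level as a covariate, and 0 to 5 when 1 library was left out, with 5 each without B6.Sle1b replicate 1 or 2. The cause of these calls was not tested. Scaling to ribosomal protein genes moved the median of all loci from -0.083 to 0.47 and the share of loci below 0 from 58.1% to 14.7%. It turned the log2 differences of H2-Aa (0.024), H2-DMb2 (0.25), Cd74 (0.26) and Ciita (0.15) positive, and the class II median was then -0.06, which is -0.53 relative to all loci. The ribosomal covariate turned H2-Ab1 (0.23) and Cd74 (0.61), and the class II median was then -0.13, or -0.14 relative to all loci, against -0.56 in the main comparison. Leaving Cd74 out of the summed class II values ended the separation of the Ctss and Ifi30 shares.

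With 1 library left out, the log2 difference ranged from -1.57 to 0.23 for H2-Ab1 and from -1.38 to 0.58 for Cd74. Differences in share, in percentage points, ranged from -3.59 to 5.37 for H2-Aa, -3.59 to 1.18 for H2-Ab1, -1.22 to 2.96 for H2-DMb2, -3.64 to 7.57 for Cd74 and -1.47 to 3.61 for Ciita. The log2 ratio ranged from -0.34 to 0.65 for H2-Aa to H2-Ab1 and from -0.29 to 0.96 for Ciita to H2-Ab1. A pseudocount of 10 turned that of H2-Oa to H2-DMa (0.083). The other alternatives kept each sign.

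Same-numbered libraries did not deviate together (correlations of 0.01, -0.03 and -0.01). With 3 libraries per group this check cannot tell whether the numbers pair them. With the replicate block 0 loci passed, the class II median was -0.64, and no call changed. The smallest p of the exact sign-flip test over 3 pairs is 0.25. The edgeR and DESeq2 alternatives were not run, since not all values were whole fragments. Low depth limits H2-Oa most.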
